A study of Rattus norvegicus with 9 samples.

Results

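The transcripts described here belong to the regulators of the muscle cell programme in a rat laryngeal muscle: the myogenic factors *Myod1*, *Myog*, *Myf6* and *Myf5*, the inhibitors *Id1*, *Id2* and *Id3*, the long noncoding RNA *H19* and the muscle filament gene *Des*. Probe sets were taken by name, as all those whose single gene symbol in the array's annotation table was one of these 9 genes. This gave 11 probe sets for 8 of the 9 genes, out of 4736 genes named on the array; no probe set carries the symbol *Myf5*, which is not analysed here. All 11 passed a filter that kept the stronger 60% of probe sets by mean signal over all arrays.

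The muscle is the posterior cricoarytenoid, which opens the vocal folds. It was taken from rats (*Rattus norvegicus*) aged 6, 18 and 30 months, with 3 oligonucleotide arrays per age and RNA of 4 animals pooled on each array. The labels name no strain, sex or treatment, and 6 months is the study's baseline. An array therefore stands for a pool, and errors given here describe how pools of 1 age differ, not how single rats do.

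The 4 myogenic factors are basic helix-loop-helix proteins. Each pairs with an E protein, binds a short DNA word called the E-box, and switches on genes of the contractile apparatus and the nerve-muscle junction. *Myod1* and *Myf5* commit precursor cells to the muscle fate, *Myog* drives their fusion and differentiation, and *Myf6* is the member most tied to mature fibres. Id proteins have the helix-loop-helix but lack the basic region that touches DNA, so that they hold E proteins away from the myogenic factors. *H19* is an imprinted noncoding RNA that is abundant in embryonic tissue and in skeletal muscle, transcribed beside the growth factor gene *Igf2*. Desmin, the product of *Des*, is the intermediate filament protein that ties neighbouring myofibrils together at their Z-discs.

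Some sequences help to place these genes. The first is the E-box itself, shown in the 250 bases before the start of *Myog*, of *Des* and of *Id2*, since these are a factor, a muscle gene and an inhibitor of the same DNA-binding system. Sequences are RefSeq's, from the rat assembly GRCr8, written 5′ to 3′ along the gene's strand, and each match to CANNTG (N is any base, both strands) is in capitals. They lie at chr13:48297226-48297475 (plus strand, *Myog*), chr9:84299376-84299625 (plus strand, *Des*) and chr6:47470996-47471245 (minus strand, *Id2*).
Myog: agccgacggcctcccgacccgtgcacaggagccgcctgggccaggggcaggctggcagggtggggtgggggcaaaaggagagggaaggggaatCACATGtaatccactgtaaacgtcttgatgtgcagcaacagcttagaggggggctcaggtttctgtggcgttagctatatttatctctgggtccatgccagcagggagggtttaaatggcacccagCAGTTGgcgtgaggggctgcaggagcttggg
Des: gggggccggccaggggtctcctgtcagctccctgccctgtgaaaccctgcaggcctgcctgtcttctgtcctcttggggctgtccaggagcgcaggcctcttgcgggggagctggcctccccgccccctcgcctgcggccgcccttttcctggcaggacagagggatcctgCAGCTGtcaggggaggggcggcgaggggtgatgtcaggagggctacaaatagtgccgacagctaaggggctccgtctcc
Id2: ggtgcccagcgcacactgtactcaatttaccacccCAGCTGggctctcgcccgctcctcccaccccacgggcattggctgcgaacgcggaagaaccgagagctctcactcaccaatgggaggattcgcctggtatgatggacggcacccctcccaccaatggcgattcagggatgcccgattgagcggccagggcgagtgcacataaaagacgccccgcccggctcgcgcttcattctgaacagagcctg

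The *Myog* window holds 2 such words, CACATG and CAGTTG, while *Des* and *Id2* hold 1 each, in both cases CAGCTG. Of the other members with a window in the table, *Myf6* (CATCTG) and *Id1* (CAACTG) hold 1 each, and *Id3* and *Myf5* hold 0. Windows were found for 7 of the 9 genes, *Myod1* and *H19* being named only. Over all 33469 windows of this length 65.5% hold CANNTG and 12% hold CAGCTG, which is one of the words counted under CANNTG. A match is a description of letters and says nothing of whether a factor sits there.

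Another belongs to *H19*, whose RNA is the source of the microRNA pair miR-675. In the GRCr8 annotation both arms lie inside the span of *H19*, on the minus strand, at chr1:207161800-207161821 for the 5p arm and chr1:207161766-207161786 for the 3p arm. Their seeds, bases 2 to 8, are in capitals, and the array measured neither arm.
rno-miR-675-5p: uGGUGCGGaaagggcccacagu
rno-miR-675-3p: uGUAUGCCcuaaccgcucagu

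The seeds GGUGCGG and GUAUGCC differ from each other, and 0 other mature rat microRNAs among the 724 in the table share either one. In the same annotation no gene lies wholly between *H19* and *Igf2* on chromosome 1, or between *Myf5* and *Myf6* on chromosome 7. Probe sets ending in _at and _g_at with the same accession (*Id1* from L23148, *H19* from X59864) were designed on the same sequence entry.

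Values are signals from Affymetrix Microarray Suite 5.0 (MAS 5.0), on a linear scale, and the arrays as deposited had nearly equal trimmed means. With control probe sets left out, the mean trimmed by 2% at each end ran from 492 to 495 over the 9 arrays. The median signal was not as even. It was 120.1 to 124.75 at 6 months, 104.2 to 115.7 at 18 months and 104.85 to 112.2 at 30 months. Every later array thus had a lower median than every array of 6 months. Apart from quantile normalization, the part of this shift in the changes of bright or dim probe sets was not tested. Signals of different probe sets are not on a common scale, so each was compared only with itself. The labelled tissue was checked with a list of 14 fibre genes, of which 11 were on the array and all 11 passed the filter. Their summed signal ran from 205685 to 240936 at 6 months, 240949 to 288927 at 18 months and 249612 to 271072 at 30 months. Among lists for other cells, 1 of 5 cartilage genes and 2 of 7 epithelial genes on the array passed the filter, while 3 of 5 thyroid, 4 of 4 blood and 8 of 8 fibroblast genes did. The summed thyroid signal was 575 to 616 at 6 months, 469 to 1142 at 18 months and 502 to 1041 at 30 months. That of the blood list was 16352.5 to 20357 at 6 months, 19861 to 21958.5 at 18 months and 20192 to 26558 at 30 months. The summed fibroblast signal was 17198 to 21853 at 6 months, 12428 to 13564 at 18 months and 13814 to 14055 at 30 months. In tissue RNA fewer cells of a type and less RNA per cell cannot be told apart.

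None of the 11 probe sets passed an adjusted p of 0.05 in any comparison (limma on log2(signal + 32), Benjamini-Hochberg over 5244 probe sets). At 18 against 6 months 0 of 11 passed, against 0.0763% of all tested probe sets. At 30 against 6 months 0 of 11 passed, against 0.324%, and at 30 against 18 months 0 of 11, against 0.0191%. The F-test for any difference among the 3 ages called 0 of 11, against 0.267%. With backgrounds this low, 0 of 11 is near the share in the whole table and is no result about these genes. The smallest adjusted p among them was 0.431 at 18 months and 0.356 at 30 months, each against 6 months, and all were 0.999 at 30 against 18 months.

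**Figure D1:**
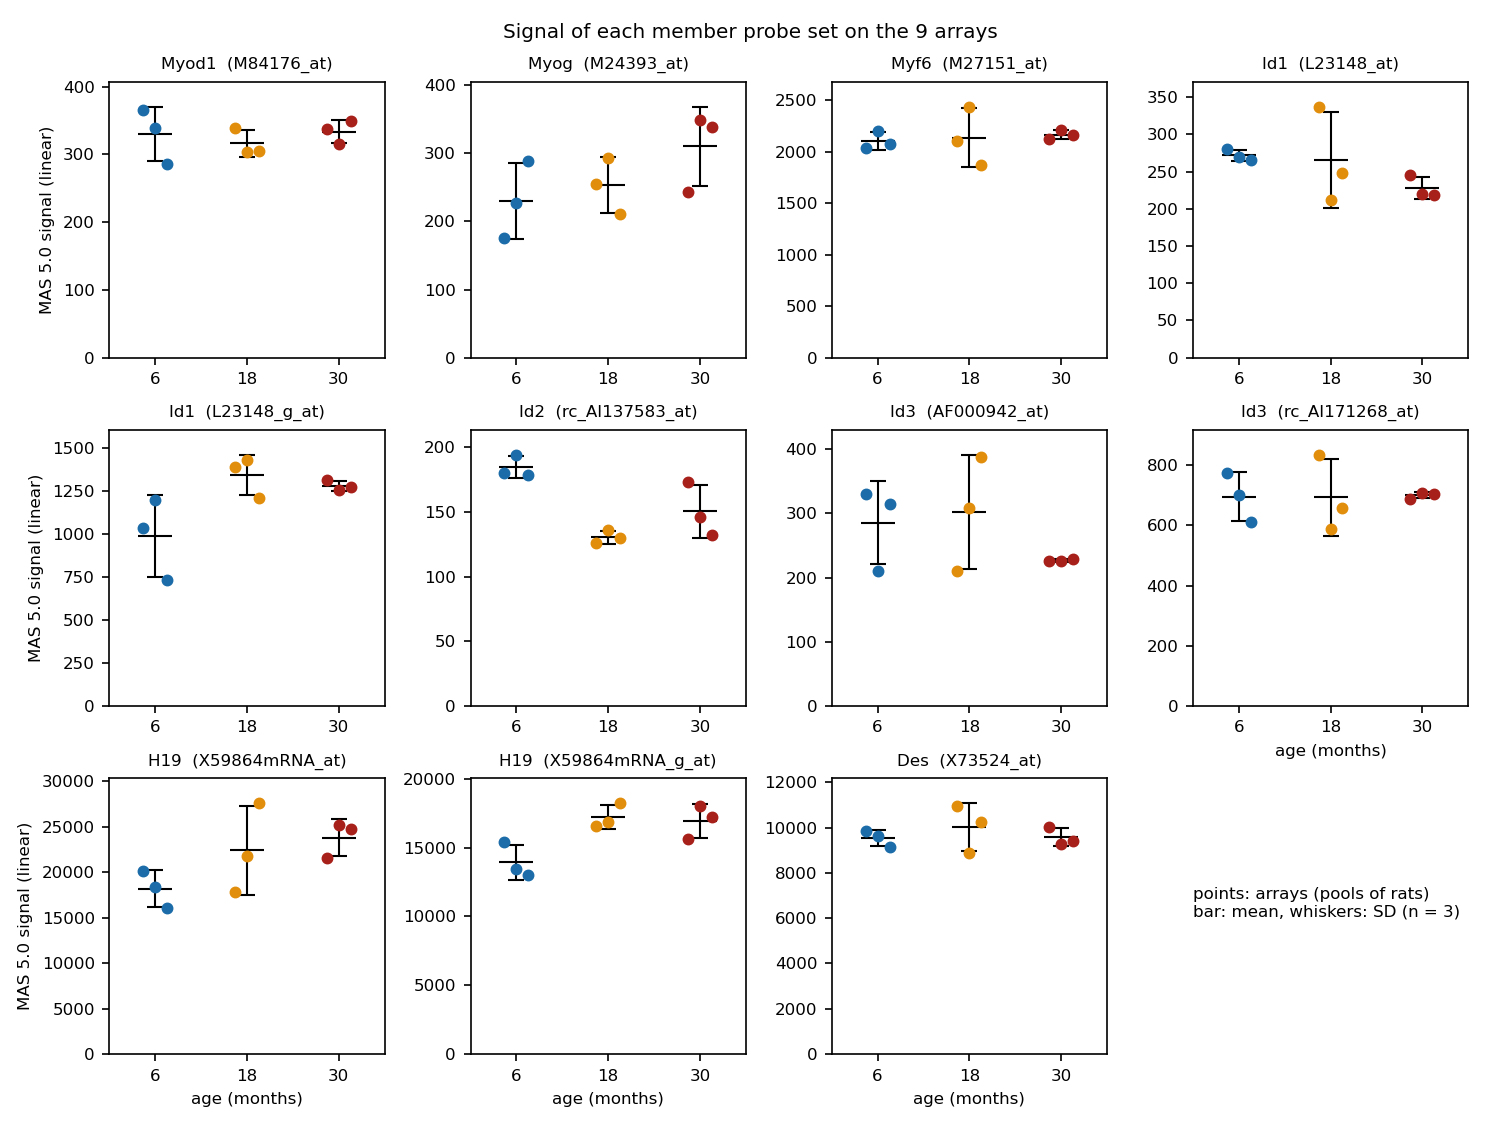
Signal of each of the 11 probe sets (y axis, MAS 5.0 signal on a linear scale from 0, 1 panel per probe set) at 6, 18 and 30 months (x axis). Points are arrays, the bar is the mean and the whiskers are the SD over 3 arrays; the ages overlap in the *Myod1*, *Myf6* and *Des* panels, both *H19* panels sit lowest at 6 months, and *Id2* sits highest at 6 months.

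*Myod1*, the determination factor, showed no difference between ages beyond the spread of its arrays. Its 3 arrays per age read 365, 339 and 286 (6 months), 339, 304 and 304 (18 months) and 337, 315 and 349 (30 months). The 3 ages overlapped throughout, and the spread within 6 months was wider than any difference between means. The log2 change was -0.05 at 18 months (SE 0.12) and 0.02 at 30 months (SE 0.12), each against 6 months. Its 95% interval at 30 months ran from 0.842 to 1.22 times the 6-month level, so that a change of 1.7-fold either way, the size the study asked of its own calls, lies outside it. These intervals come from the limma fit and are not adjusted for the number of probe sets.

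*Myf6*, which encodes the factor of mature fibres also called MRF4, likewise showed no difference beyond the spread of its arrays. Its arrays read 2032.5, 2204 and 2075 (6 months), 2099.6, 2437 and 1870.2 (18 months) and 2120.5, 2213 and 2159 (30 months). The highest and the lowest array were both of 18 months, and the values of 6 and 30 months lay between them. The mean was 2164 ± 46.7 at 30 months and 2104 ± 89.1 at 6 months (SD, n = 3 each), a log2 change of 0.04 (SE 0.12). The interval ran from 0.854 to 1.24 times the 6-month level at 30 months, and from 0.838 to 1.22 times at 18 months.

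*Myog*, the differentiation factor, had the largest change among the 3 measured myogenic factors at 30 months, without a call. It read 176, 226 and 288 (6 months), 255, 294 and 211 (18 months) and 244, 349 and 338 (30 months). At 30 months 2 of 3 arrays stood above all others of the series, while the remaining one lay inside the range of 6 months. Mean signal was 310 ± 58.0 at 30 months and 230.0 ± 56.2 at 6 months (SD, n = 3 each), a ratio of 1.35. The log2 change was 0.39 (SE 0.19, adjusted p = 0.414), and its interval ran from 0.973 to 1.77 times. At 18 months it was 0.14 (SE 0.19, adjusted p = 0.859). Without replicate 1 of 6 months, the lowest array of *Myog*, the change was -0.02 at 18 months and 0.24 at 30 months. With replicate 3 of 6 months left out it was 0.29 and 0.55. Leaving out replicate 2 or replicate 3 of 18 months gave 0.04 or 0.25 for the change at that age.

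The Id genes did not move as a group. *Id2* had the smallest unadjusted p of all 11 probe sets at 18 months, and its mean was lower at both later ages, without a call. Its arrays read 180.5, 194 and 179 (6 months), 126, 136 and 129.9 (18 months) and 173, 146 and 132.5 (30 months). Every array of 18 and of 30 months was below every array of 6 months, and the arrays of the later ages overlapped each other. The ratio was 0.707 at 18 months, with a log2 change of -0.41 (SE 0.11, unadjusted p = 0.00504, adjusted p = 0.431). At 30 months the ratio was 0.816, with a log2 change of -0.25 (SE 0.11, adjusted p = 0.393). With the larger pseudocount tried the 18-month change was -0.27, and after quantile normalization the 30-month change was -0.15. By unadjusted p *Id2* stood at rank 58 of 5244 at 18 months and at rank 720 at 30 months. On the same side lay the summed fibroblast signal given above, with 4 of its 8 genes past the adjusted threshold in at least 1 comparison. At 30 months *Col1a1*, *Col1a2*, *Col3a1* and *Col5a2* had log2 changes of -1.25, -1.35, -1.42 and -1.05. *Fn1*, *Lum*, *Pdgfra* and *Dcn* had -0.81, -0.44, -0.17 and -0.09. The summed Schwann cell signal was also lower, at 2935.5 to 3426.1 (6 months), 2615.0 to 2889.0 (18 months) and 2597.7 to 2889.9 (30 months). Of its 5 genes on the array 0 passed the adjusted threshold, and 2 had a log2 change above 0 at each later age. The part of either cell type in the *Id2* values was not tested.

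*Id1* did not give the same answer from its 2 probe sets, which share 1 sequence entry. L23148_g_at read 1033, 1199 and 731 (6 months), 1388, 1430.5 and 1211 (18 months) and 1312, 1252 and 1275 (30 months). All 6 later arrays were above all 3 of 6 months, where the pools also differed most. The log2 change was 0.46 at 18 months (SE 0.17, unadjusted p = 0.0227, adjusted p = 0.532) and 0.39 at 30 months (SE 0.17, adjusted p = 0.371). L23148_at, the other one, read 279.9, 269.7 and 266 (6 months), 337.5, 213 and 248 (18 months) and 246, 221 and 218 (30 months). There all arrays of 30 months were below all of 6 months, with a log2 change of -0.23 (SE 0.15, adjusted p = 0.535). At 18 months the change of L23148_at was -0.05 (SE 0.15, adjusted p = 0.936), and its interval included 0 at both ages. Without replicate 3 of 6 months, the array at 731, the change of L23148_g_at was 0.26 at 18 months and 0.20 at 30 months. The sign of the *Id1* change therefore depends on which probe set is read, and that of L23148_at is not set apart from 0.

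*Id3* had nearly equal means at all ages in the probe set that represents it, rc_AI171268_at. That probe set read 776, 702 and 610.3 (6 months), 835, 587 and 657 (18 months) and 688, 709 and 705 (30 months). The means were 701 ± 11 at 30 months and 696 ± 82.9 at 6 months (SD, n = 3 each), with an interval of 0.806 to 1.27 times. AF000942_at read 331, 211 and 315 (6 months), 209.5, 309 and 388 (18 months) and 226, 225 and 229 (30 months). In both probe sets the pools of 30 months lay close together, inside the range of the younger ages. The log2 change of AF000942_at at 30 months was -0.27 (SE 0.21, adjusted p = 0.592). It became -0.17 when replicate 1 of 6 months was dropped and -0.46 when replicate 2, the low array of that age, was.

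*H19* had a higher mean at both later ages in both of its probe sets, without a call. X59864mRNA_at read 20114, 18418 and 16071 (6 months), 17832, 21787 and 27617 (18 months) and 21531, 25173 and 24752 (30 months). The arrays of 30 months were all above those of 6 months, and those of 18 months overlapped both, with 1 array above all others of the series. The log2 change was 0.28 at 18 months (SE 0.17, adjusted p = 0.651) and 0.39 at 30 months (SE 0.17, unadjusted p = 0.0438, adjusted p = 0.371). Single arrays decided the 18-month value, which became 0.44 with replicate 1 of 18 months left out and 0.12 with replicate 3 left out. At 30 months the mean was 23818.5 ± 1992, against 18201 ± 2030.1 at 6 months (SD, n = 3 each), a ratio of 1.31.

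X59864mRNA_g_at, the other *H19* probe set, also had its lowest mean at 6 months. It read 15385, 13417 and 13019 (6 months), 16559, 16863 and 18246 (18 months) and 15614, 18006 and 17212 (30 months). All 6 later arrays exceeded all 3 of 6 months, while 18 and 30 months overlapped. The log2 change was 0.31 at 18 months (SE 0.12, unadjusted p = 0.0250, adjusted p = 0.532) and 0.28 at 30 months (SE 0.12, unadjusted p = 0.0358, adjusted p = 0.356). The interval at 30 months ran from 1.02 to 1.46 times the 6-month level, so that a change of 1.7-fold lies outside it. That of X59864mRNA_at ran from 1.01 to 1.701 times, which reaches 1.7-fold, so this holds for 1 of the 2 probe sets only.

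The scaling of the arrays bears on the size of the *H19* difference. After quantile normalization the log2 change of X59864mRNA_at was 0.10 at 18 months and 0.20 at 30 months, and that of X59864mRNA_g_at was 0.17 and 0.14. The signs stayed and each value became smaller by more than 1.5 times. The summed fibre signal given above was also lower at 6 months. Every array of 18 and 30 months lay above every array of 6 months (lowest 240949, against 240936 for the highest of 6 months). X59864mRNA_g_at had the same separation from 6 months at both later ages, and X59864mRNA_at had it at 30 months but not at 18 months. No correlation of the fibre sum with *H19* was computed, and the part of that sum in the *H19* values was not tested. The summed blood signal given above overlapped between ages, with its highest array at 30 months, and its part was not tested either. Muscle creatine kinase, *Ckm*, a fibre gene of that list and a classical target of the myogenic factors, had a log2 change of 0.42 at 30 months (SE 0.11, adjusted p = 0.237).

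*Des* showed no difference between ages beyond the spread of its arrays. Its arrays read 9863, 9624 and 9144 (6 months), 10955.5, 8869 and 10247 (18 months) and 10016, 9267 and 9428 (30 months). The highest and lowest arrays were both of 18 months. The log2 change was 0.07 at 18 months and 0.00393 at 30 months (SE 0.11 each), with an interval at 30 months of 0.840 to 1.20 times. In the fibre list, which does not hold *Des*, 11 of 11 genes had a log2 change above 0 at 30 months, beside 2163 of all 5244 tested probe sets.

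**Figure D2:**
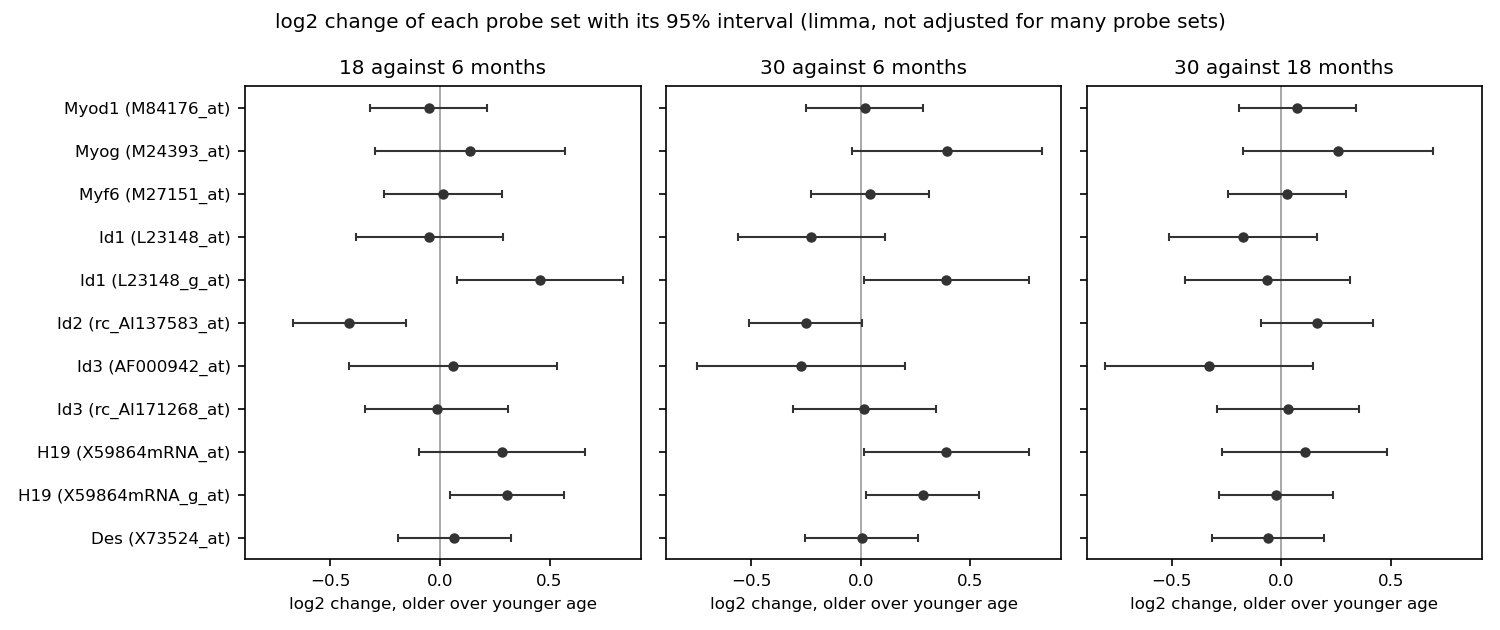
The log2 change (x axis, older over younger age) of each probe set (rows), with its 95% interval from limma, in 1 panel per comparison. At 18 months the interval of *Id2* lies below 0 and those of L23148_g_at (*Id1*) and X59864mRNA_g_at (*H19*) above it, at 30 months those of L23148_g_at and both *H19* probe sets lie above 0, and none of the 11 passes after adjustment.

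Counts without adjustment were read against the whole table. At an unadjusted p under 0.05, 3 of 11 probe sets stood out at 18 months (*Id2*, 1 of *Id1* and 1 of *H19*), against 8.62% of all tested. At 30 months 3 of 11 did (1 of *Id1* and both of *H19*), against 12.9%, and at 30 against 18 months 0 of 11, against 3.20%. Arrays of both ages did not overlap, with 18 months higher than 6 months, in 2 of 11 (5.32% of all) and with 18 months lower in 1 of 11 (8.35%). At 30 months they did not overlap in 3 of 11 on the higher side (7.40% of all) and in 2 of 11 on the lower side (14.8%). Between 30 and 18 months there were 0 of 11 on the higher side (3.18%) and 0 of 11 on the lower side (4.18%). The 2 probe sets of a gene are not independent of each other, so these shares over 11 rest on fewer genes. The median log2 change of the 11 was 0.06 at 18 months and 0.02 at 30 months, beside -0.04 and -0.05 over all tested probe sets.

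No difference between 30 and 18 months came near the threshold, although some exceeded their SE. The log2 change of 30 over 18 months lay between -0.33 (AF000942_at of *Id3*, SE 0.21) and 0.26 (*Myog*, SE 0.19). That of *Id2* was 0.16 (SE 0.11, adjusted p = 0.999), and those of *H19* were 0.11 (SE 0.17) and -0.02 (SE 0.12). Several of these values rested on single arrays. That of *Id3* AF000942_at was -0.55 with replicate 1 of 18 months left out and -0.15 with replicate 3 left out. For *Myog* it became 0.15 when replicate 3 of 18 months was dropped and 0.41 when replicate 1 of 30 months was dropped. Dropping replicate 1 of 30 months also brought *Id2* to 0.0759. For *H19* X59864mRNA_at the value was -0.05 or 0.27 when replicate 1 or replicate 3 of 18 months was dropped, and 0.18 or 0.0657 when replicate 1 or replicate 2 of 30 months was.

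How far the probe sets of 1 gene followed each other over the 9 arrays was computed for 3 genes, with *H19* against *Igf2* as the fourth pair, all chosen after the values were seen. The *H19* probe sets moved together, with Pearson's r = 0.848 (exact permutation p = 0.00381, 0.0153 adjusted over 4 pairs, two-sided, n = 9) and Spearman's rho = 0.900 (exact permutation p = 0.00203, adjusted 0.00811). Without the 2 arrays farthest from the median of X59864mRNA_at r was 0.691, and over deviations from each age's mean it was 0.786. The arrays left out were chosen by 1 probe set of a pair only, L23148_at for *Id1* and AF000942_at for *Id3*. The *Id1* pair gave no correlation past the threshold, with r = -0.188 (exact permutation p = 0.602, adjusted 0.602, n = 9) and rho = -0.433 (exact permutation p = 0.250, adjusted 0.250); r was -0.543 without the 2 farthest arrays and 0.077 within ages. For the *Id3* pair, also short of the threshold, r was -0.465 (exact permutation p = 0.203, adjusted 0.271, n = 9) and rho -0.467 (exact permutation p = 0.213, adjusted 0.250), with -0.871 without the 2 farthest arrays and -0.496 within ages. Each age holds only 3 arrays, so r was not computed within single ages. The permutations shuffled all 9 arrays across ages, so differences between ages enter these p-values. As the pairs were picked with their values known, the p-values serve as a description only. The *H19* probe sets also share 1 sequence entry.

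**Figure D3:**
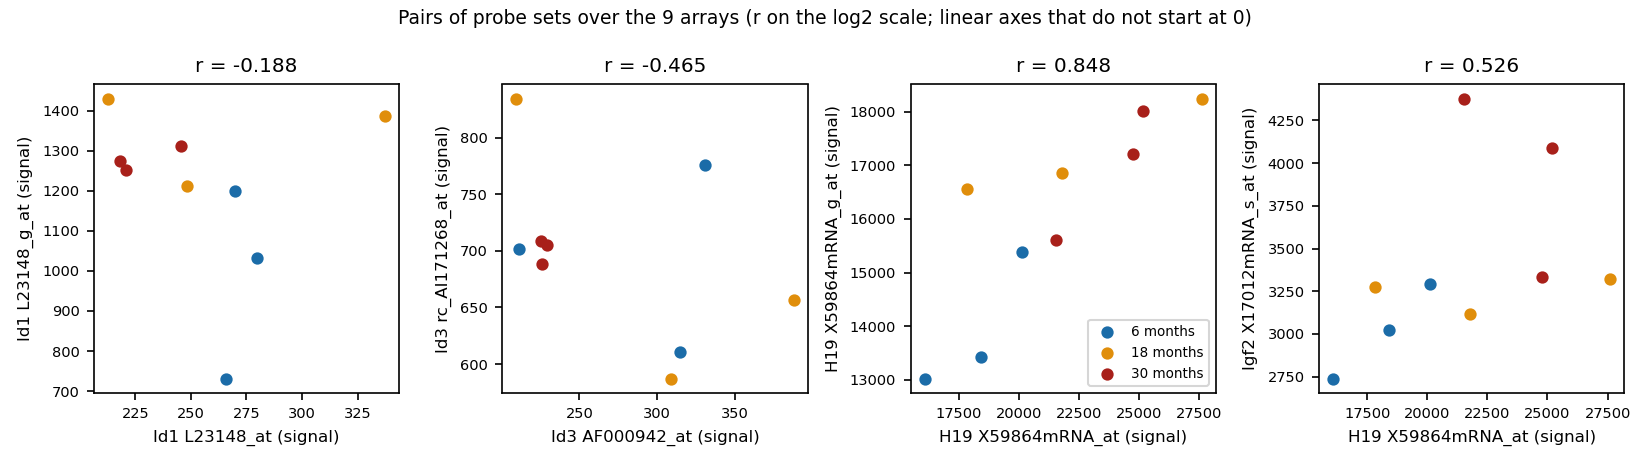
Signals of 2 probe sets on the 9 arrays (both axes MAS 5.0 signal, linear and not starting at 0), 1 point per array, coloured by age. The *H19* pair lies along a rising line (r = 0.848), whereas the *Id1* and *Id3* pairs do not (r = -0.188 and -0.465) and *H19* against *Igf2* gives r = 0.526.

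*Igf2*, the paternally expressed growth factor gene next to *H19*, was read by several probe sets that disagreed. The strongest, X17012mRNA_s_at, read 3292, 3023 and 2738 (6 months), 3273, 3117 and 3323 (18 months) and 4378, 4090.2 and 3332 (30 months). The 30-month arrays were all above the others, with a log2 change of 0.37 against 6 months (SE 0.13, adjusted p = 0.327). M17960_at and M17960_g_at had log2 changes of -0.24 and -0.19 at 30 months, on the other side of 0. E00988mRNA_s_at had 0.76, with arrays of 6 months spread from 254 to 674. Between *H19* (X59864mRNA_at) and *Igf2* (X17012mRNA_s_at) r was 0.526 (exact permutation p = 0.148, adjusted 0.271, n = 9) and rho 0.667 (exact permutation p = 0.0589, adjusted 0.118). Without the 2 arrays farthest from the median of X59864mRNA_at r was 0.485, and over deviations from age means it was 0.107.

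In the list of the *H19* locus and other imprinted growth genes, *H19* included, 10 of 18 genes were tested, and 0 passed the threshold in either direction in any comparison. Of these 10, 8 had a log2 change above 0 at 30 months, beside 2163 of all 5244 tested probe sets. The median of the 10 was 0.17, beside -0.05 over all tested probe sets. *Gnas*, an imprinted gene for a G protein subunit, had 0.35 at 30 months in the probe set with its highest mean (adjusted p = 0.334). Its other probe sets had -0.04, 0.01 and, in L10326_at, -0.63 (adjusted p = 0.162), so that the sign for *Gnas* differs between probe sets.

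Partners of the myogenic factors gave no call either. Of 32 listed genes 10 were on the array under the listed symbol and 8 were tested, with 0 passing in any comparison and a median log2 change of -0.055 at 30 months. Named by highest mean signal were *Mstn*, which encodes myostatin, a secreted brake on muscle growth, and *Mef2d*, a transcription factor that works together with the myogenic factors. *Mstn* averaged 1319 ± 239 at 30 months and 1619 ± 319 at 6 months (SD, n = 3 each), a log2 change of -0.28 (adjusted p = 0.517). *Mef2d* had 0.01 (adjusted p = 0.986). The E protein genes *Tcf3*, *Tcf4* and *Tcf12*, looked up for their role as dimer partners, had log2 changes of -0.07, 0.05 and -0.36 at 30 months (adjusted p = 0.900, 0.895 and 0.327).

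Among 27 listed targets of the myogenic factors 19 were tested, and 0 passed in any comparison. At 18 months 14 of 19 had a log2 change above 0, with a median of 0.18, and at 30 months 12 of 19, with a median of 0.09. Over all 5244 tested probe sets 2219 lay above 0 at 18 months and 2163 at 30 months. *Ckm* is given above, and *Acta1*, skeletal α-actin, had 0.24 at 30 months (adjusted p = 0.452). The acetylcholine receptor genes, looked up because the myogenic factors act on their promoters, did not share a side: at 30 months *Chrna1* had -0.01, *Chrnb1* 0.23, *Chrnd* 0.32, *Chrne* -0.08 and *Chrng*, the fetal subunit, -0.30 (adjusted p = 0.973, 0.590, 0.381, 0.761 and 0.403).

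The list of satellite cell and regeneration genes, which covers the stem cells of muscle and the markers of newly formed fibres, had 19 of 29 genes tested and 0 called in any comparison. At 30 months 6 of 19 lay above 0, beside 2163 of all 5244 tested probe sets, with a median of -0.12 in the list. Its strongest genes, *Itga7* (laminin receptor integrin) and *Sdc4* (syndecan), had 0.30 and 0.09. Other tested probe sets had 0.31 and 0.54 for *Itga7* and 0.22 for *Sdc4*. *Myh8*, the perinatal myosin heavy chain, had the largest size of change in the list and is named after its values were seen. It read 364, 1388 and 103 (6 months), 301, 76.6 and 296 (18 months) and 64.5, 123 and 111 (30 months). A single array of 6 months stood far above all others, and the ages overlapped (log2 change -1.72 at 30 months, SE 0.74, adjusted p = 0.371). The embryonic myosin gene *Myh3* had -0.02 at 30 months in its strongest probe set, and -0.16, -0.06 and -0.25 in its other tested ones. At 18 months the strongest had 0.18, while K03468_s_at had -0.44 without overlap (adjusted p = 0.431). Of the 6 markers fixed for satellite cells 3 were on the array, *Met*, *Ncam1* and *Vcam1*, while *Pax7*, *Cdh15* and *Myf5* were not matched by symbol. Their summed signal was 398 to 557 at 6 months, 301 to 473 at 18 months and 287 to 345 at 30 months, and all 3 had a log2 change below 0 at both later ages in the strongest probe set. The other tested probe set of *Ncam1* had 0.56 at 30 months. How far such cells contribute to the *Myod1*, *Myog* or Id values was not tested.

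The list of *Des* and its partners gave 16 tested genes of 30 listed, 0 called in any comparison, and a median log2 change of 0.005 at 30 months. *Cryab*, the small heat shock protein that binds desmin filaments, is named for its high signal. It averaged 20090.0 ± 2074 at 30 months and 15298 ± 940 at 6 months (SD, n = 3 each), a log2 change of 0.39 (SE 0.13, adjusted p = 0.303), with no overlap between those ages. Its other probe set had 0.18. *Vim*, the intermediate filament gene of nonmuscle and immature muscle cells, had 0.00621 at 30 months (adjusted p = 0.989).

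Signals that feed the Id genes come from bone morphogenetic proteins and their relatives. Of 33 listed genes 18 were tested and 0 passed in any comparison, with a median log2 change of -0.09 at 30 months. The early response genes *Egr1* and *Jun*, the strongest of the list, had -0.03 and -0.09 (SE 0.52 and 0.34, adjusted p = 0.988 and 0.935). With such SEs these values do not show an absence of change. Other tested probe sets of *Egr1* had 0.07, -0.33 and -0.39, and those of *Jun* had 0.19 and 0.05.

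**Figure D4:**
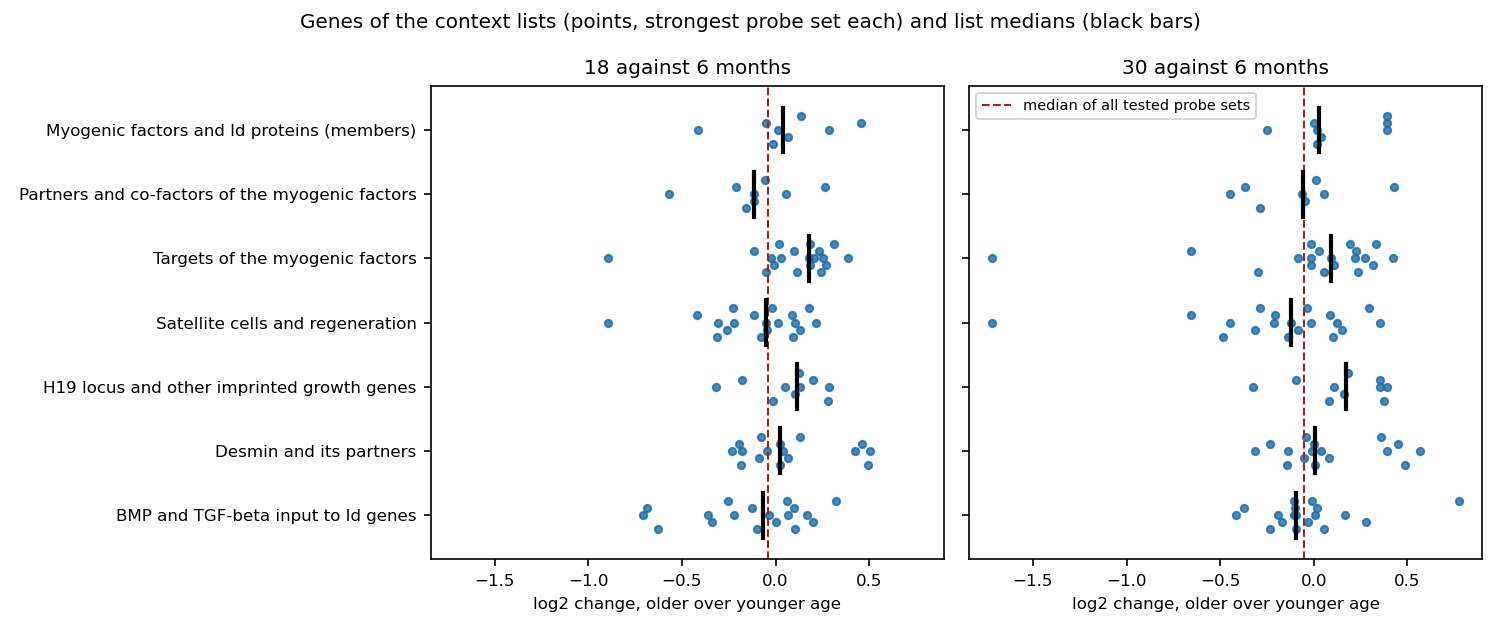
The log2 change (x axis, older over younger age) of every tested gene of 7 lists (rows), each by its strongest probe set, at 18 and 30 against 6 months. Black bars are list medians and the dashed line is the median of all tested probe sets (-0.04 and -0.05); the imprinted list has its median at 0.17 at 30 months, the satellite cell list at -0.12, and no gene shown passes the threshold.

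For each member the genes with the most similar course over the 9 arrays were ranked by Pearson's r of log2 signal among 3162 other tested genes, as a description that carries no p because the best of so many is always high. *H19* (X59864mRNA_at) lay nearest to *Eef1a2* (r = 0.941), *COX3* (0.923) and *Myl11* (0.902), which encode the elongation factor of mature muscle, a mitochondrial respiratory subunit and the fast regulatory myosin light chain. *Des* lay nearest to *Ckmt1* (0.933), *Paqr7* (0.913) and *Aqr* (0.908). *Myog* lay nearest to *Ampd1* (0.891), the muscle AMP deaminase, then *St3gal5* (0.882) and *Rab12* (0.872). For *Myod1* the nearest were *Rpl17* (0.958), *Nr3c1* (0.907), the glucocorticoid receptor gene, and *Gsk3b* (0.899), and for *Myf6* they were *Spop* (0.872), *Alas1* (0.846) and *Ipo7* (0.839). *Id1* (L23148_g_at) lay nearest to *Mafk* (0.961), *Klf4* (0.892) and *Sts* (0.886). *Id2* was nearest to *Kcnh8* (0.923), *Anxa5* (0.910) and *Mcpt1l1* (0.910), and *Id3* (rc_AI171268_at) to *Ppp3cb* (0.942), *Taf10* (0.908) and *Sh3gl1* (0.905). Within these triplets no member of the set appeared as a neighbour of another.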

How the data were processed

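The authors deposited 1 signal intensity per probe set and array, made with Microarray Suite 5.0 per the series' design text and the submitters' processing notes, on a linear scale. Settings and detection calls were not used here. The labels name 2 dyes, while the design text describes biotin and a streptavidin stain; values were read as 1-channel signals. Of 8799 rows 59 were controls and left out. Sample titles give the age that defines each group. Signals were analysed as log2(signal + 32), and 5244 of 8740 probe sets past a mean of 6.60 on that log2 scale were tested. limma 3.58.1 (R 4.3.3) estimated the 3 age means from all 9 arrays, and its two-sided p-values were adjusted over all 5244 (Benjamini-Hochberg). An array is a pool of animals, so p-values measure the spread between pools; 3 arrays per age limit the precision. An exact permutation test of 3 against 3 cannot go below p = 0.1 and was not run for single probe sets. The code was tested on simulated data.

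The genes described and the lists were chosen with earlier results of these data known. Named were all members by every probe set, per list the 2 genes of highest mean signal and any gene past the threshold, and 3 most similar genes per member; other names were added after their values were seen. A gene with several probe sets is represented in lists by the strongest. Of 8740 probe sets 7006 carried 1 symbol in the platform's annotation table, 308 several and 1426 none; all 11 member probe sets matched GRCr8 gene IDs with the same symbol. The alternatives tried were pseudocounts of 8 and 128, other filters, quantile normalization, a replicate block, leaving out each array, fits of only the compared ages, and a rule of a 1.7-fold ratio without overlap.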

Additional observations from a re-analysis of the deposited data

How the results depend on the processing

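The count of members called was 0 in each pairwise comparison under every alternative tried, fits with a replicate block, single arrays left out and the fold rule included. By the F-test it was also 0 under each alternative in which that test was run, which leaves out the fold rule and the fits of only the compared ages. Replicate numbers were not taken to pair the arrays, as the labels do not say whether equal numbers share a batch. Deviations of same-numbered arrays from their age means correlated at -0.02 to 0.26, above 0.1 in 4 of 9 pairs. Yet 8 of 9 arrays lay closest to their own number, and the main fit leaves out any structure that equal numbers share. With the replicate block the counts over all probe sets were 6, 11 and 0 at 18 against 6, 30 against 6 and 30 against 18 months, and 4 by the F-test, beside 4, 17, 1 and 14 without it. With single arrays left out they ran from 0 to 5, 0 to 20, 0 to 1 and 0 to 11. Over all alternatives these counts ran from 0 to 75, 0 to 117, 0 to 33 and 0 to 19, the highest of the first 3 by the fold rule, which has no test. At 18 months quantile normalization turned the sign of *Id1* L23148_at (0.0103), *Myf6* (-0.0138), *Id3* rc_AI171268_at (0.00209) and *Des* (-0.0236), and at 30 months that of *Des* (-0.0773); the cause was not tested. Single arrays left out turned the sign of small changes. At 18 months these ranged from -0.0206 to 0.291 for *Myog*, -0.0841 to 0.104 for *Myf6*, -0.143 to 0.017 for *Myod1*, -0.214 to 0.0832 for *Id1* L23148_at, -0.15 to 0.0924 for *Id3* rc_AI171268_at, -0.124 to 0.275 for *Id3* AF000942_at and -0.000823 to 0.151 for *Des*. At 30 against 6 months they ranged from -0.072 to 0.0883 for *Myod1*, -0.0716 to 0.0937 for *Id3* rc_AI171268_at and -0.0292 to 0.0279 for *Des*. At 30 against 18 months they ranged from -0.063 to 0.125 for *Myf6*, -0.0769 to 0.166 for *Id3* rc_AI171268_at, -0.0458 to 0.269 for *H19* X59864mRNA_at, -0.0698 to 0.0329 for X59864mRNA_g_at and -0.147 to 0.00476 for *Des*. *Id2*, *Id1* L23148_g_at and both *H19* probe sets kept their sign against 6 months in every alternative, without a call. *Id2* lay under the stricter filter and has no value there. Detection calls were not used here, so how far a dim probe set stood above its background is unknown here.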
